A study of Mus musculus with 6 samples.

Results

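The Th1 program genes described here are 10 genes that mark or build the T helper 1 (Th1) state: the transcription factor genes Tbx21, Eomes, Runx3, Stat4 and Hlx, the cytokine gene Ifng, and the genes of the IL-12 and IL-18 receptors, Il12rb1, Il12rb2, Il18r1 and Il18rap. They were chosen by name, from general knowledge of Th1 cells and with earlier results of these data known. All 10 were among the 31017 genes of the count table and passed the filter on low counts, Eomes only through the KO libraries, where it was high. RNA was sequenced from mouse Th17 cells, which are helper T cells differentiated in culture to secrete IL-17. The 3 control libraries carry the genotype WT and the 3 KO libraries are RTF1-deficient. RTF1 is a nuclear protein that travels with RNA polymerase II and promotes ubiquitination of histone H2B. How RTF1 was deleted, the strain, the age of the mice and the culture conditions are not given in the sources used here. Nor is it stated whether replicates came from separate animals or cultures, so p-values measure only the spread between these libraries. Y-linked genes held 11376 counts in control replicate 3 and 5147 in KO replicate 3, and at most 3 in any other library. Replicate 3 of each group thus came from a donor of another sex than the other replicates. The spread therefore includes a difference between donors, and the rest of it may be technical.

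A naive helper T cell becomes a Th1 cell when IL-12 signals through its receptor and STAT4, and T-bet, the protein of Tbx21, is induced. T-bet acts with RUNX3, HLX and, in some cells, eomesodermin (Eomes) on Ifng, and IL-18 receptor genes are switched on, so that IL-12 and IL-18 together drive interferon gamma. Th17 cells normally hold this program low, but they can take on parts of it.

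Total counts ranged from 16489813 to 51271226 per library. Rtf1 held 91.2 ± 2.84 CPM (counts scaled to library size with TMM factors) in control and 33.9 ± 10.03 in KO (SD, n = 3), with no overlap between the groups, so Rtf1 RNA was reduced but present in the KO libraries. The Th17 label was checked against 7 genes, among them Cd3e, Cd4, Il17a, Il17f, Il23r and Ccr6, all of which were detected in every library. Their summed level ran from 2063 to 2671 CPM in control and from 1051 to 1656 CPM in KO, where Cd3e was called higher and Cd4, Il17a, Il17f, Il23r and Ccr6 were called lower. Of these calls, Ccr6 was lost in 4, Il17f in 3 and Il23r in 2 of 6 leave-one-out fits, and Ccr6 also when libraries were scaled by size alone. Replicate 3 of both groups held Y-linked counts and almost no Xist, and the other libraries the reverse, so the results for the members are also given for replicates 1 and 2 alone where the call or direction changed.

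In RTF1-deficient cells 5 of the 10 Th1 program genes rose: Tbx21, Eomes, Hlx, Il18r1 and Il18rap, with log2 fold changes of 2.74 to 4.27. None was called lower in this comparison, which did not pair the replicate numbers. Runx3 and Il12rb1 differed by less than the spread between libraries, and Ifng was barely detected in either group. Stat4 and Il12rb2 had lower means in KO without being called. A fit that paired equal replicate numbers called both lower (edgeR adjusted p = 0.00494 and 0.00201), beside 26.4% of all tested genes. Replicates 1 and 2 alone also called both lower (edgeR adjusted p = 0.0274 and 0.00752). A gene was called when the Benjamini-Hochberg adjusted p-value of edgeR's quasi-likelihood test over all 14268 tested genes was under 0.05. By this rule 46.1% of all tested genes were called, of which the higher ones made up 23.2% and the lower ones 22.9% of those tested. The median log2 fold change of the 10 members was 1.70, and that of all tested genes 0.013. In the same 5 members every KO library lay above every control library, which held for 29.9% of all tested genes. In no member did all KO libraries lie below all control libraries, as 28.0% of all tested genes did, and 57.9% of all tested genes had groups that did not overlap. In the other 5 members the groups overlapped.

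**Figure D1:**
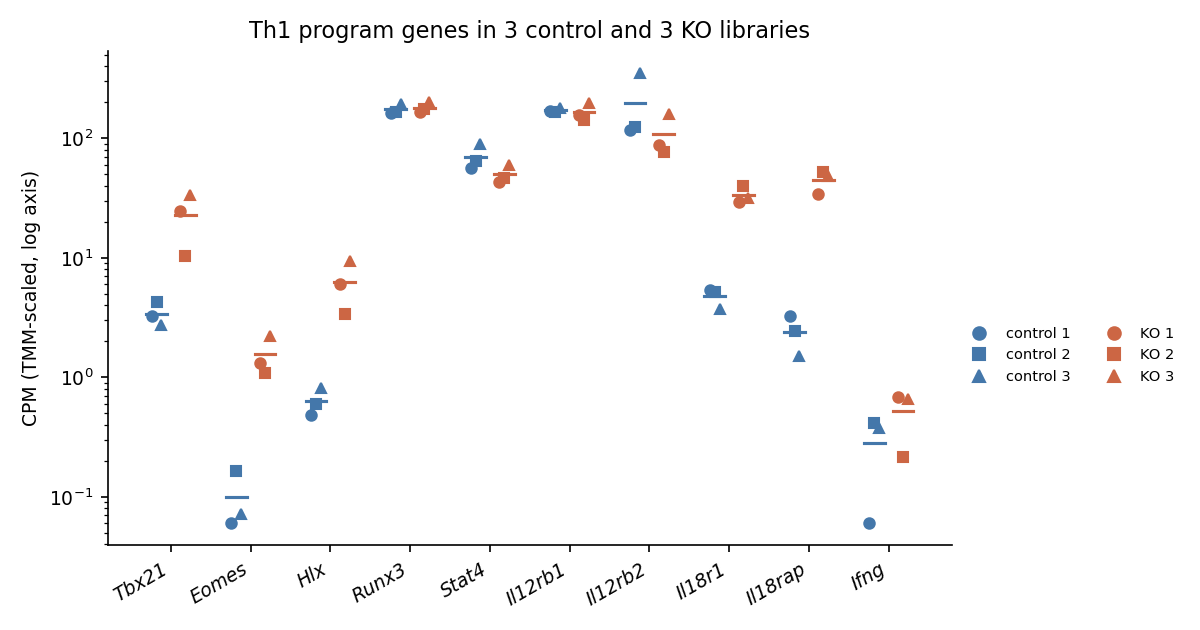
CPM of each Th1 program gene (log axis) in the 3 control (blue) and 3 KO (orange) libraries, with circles, squares and triangles for replicates 1, 2 and 3 and short lines for group means. KO libraries lie above all control libraries for Tbx21, Eomes, Hlx, Il18r1 and Il18rap, and the groups overlap for the other 5 genes.

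RefSeq promoter windows were at hand for 9 of the 10 members (build GRCm38.p6), Il12rb1 being the other. The 250 bases before each annotated start were searched on both strands for 4 motifs: the GAS element bound by STAT dimers (TTCNNNGAA), the T-box element AGGTGTGA, the RUNX element TGTGGT and the AP-1 element TGANTCA. The GAS letters stood in at least 1 window of Il18r1, Il12rb2 and Ifng, 3 of 9 members, and in 8.13% of all genes with a window. RUNX letters were found only in a window of Runx3 among these members, and in 15.9% of all genes. The T-box and AP-1 letters were in no member's window, and in 1.3% and 7.82% of all genes. Windows are printed for Tbx21 and Il18rap, which rose, and for Il12rb2 and Ifng, which were not called and hold a GAS match. GAS letters are in capitals, and each sequence runs 5′ to 3′ on the strand of the gene and ends at the base before the start.
Tbx21, chr11:97115332-97115581, minus strand: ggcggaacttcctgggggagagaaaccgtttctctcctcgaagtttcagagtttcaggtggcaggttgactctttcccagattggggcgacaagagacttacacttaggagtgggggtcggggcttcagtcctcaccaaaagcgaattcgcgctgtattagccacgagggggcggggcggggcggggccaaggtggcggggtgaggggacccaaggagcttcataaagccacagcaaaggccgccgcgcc
Il18rap, chr1:40515112-40515361, plus strand: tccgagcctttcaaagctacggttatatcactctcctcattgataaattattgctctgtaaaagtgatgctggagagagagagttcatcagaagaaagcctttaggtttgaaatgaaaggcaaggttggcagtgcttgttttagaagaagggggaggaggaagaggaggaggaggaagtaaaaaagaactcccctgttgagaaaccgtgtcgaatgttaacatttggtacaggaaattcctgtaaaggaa
Il12rb2, chr6:67376189-67376438, minus strand: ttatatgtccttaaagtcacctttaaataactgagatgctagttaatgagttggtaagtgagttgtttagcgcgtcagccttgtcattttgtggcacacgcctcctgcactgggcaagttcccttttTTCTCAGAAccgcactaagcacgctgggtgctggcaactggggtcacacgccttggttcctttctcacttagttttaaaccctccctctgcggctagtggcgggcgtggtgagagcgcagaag
Ifng, chr10:118440796-118441045, plus strand: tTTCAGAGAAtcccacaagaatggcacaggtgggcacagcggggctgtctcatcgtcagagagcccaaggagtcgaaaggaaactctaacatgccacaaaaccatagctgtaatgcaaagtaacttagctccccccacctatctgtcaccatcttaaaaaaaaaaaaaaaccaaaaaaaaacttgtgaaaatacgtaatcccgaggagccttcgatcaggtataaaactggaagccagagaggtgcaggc
In Il12rb2 the match starts at base −123 from the start of transcription, and in Ifng at base −249. Il18r1 has 3 windows on chromosome 1, and the last one (40465756 to 40466005) holds 2 GAS matches, TTCTGGGAA at −219 and TTCCCAGAA at −152. That window precedes a later annotated start and lies inside the Il18r1 gene model, which begins at 40465552. Of its bases, 91 are in annotated exons. The earlier windows of Il18r1 hold no GAS match. The windows of the members that rose thus held a GAS match in Il18r1 only, and a match or its absence is a description of these letters.

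Among the transcription factors, Tbx21 encodes T-bet, the lineage-defining factor of Th1 cells (chr11:97098071-97115331, minus strand, 6 exon blocks in GENCODE M21). It held 3.28, 4.25 and 2.73 CPM in control replicates 1, 2 and 3 and 24.8, 10.3 and 33.9 CPM in KO replicates 1, 2 and 3. Every KO library was above every control library, with KO replicate 2 the lowest of the 3. The log2 fold change was 2.74 (standard error 0.408, adjusted p = 0.00118 by edgeR), a 6.66-fold difference. With replicates 1 and 2 alone it was 2.19 (edgeR adjusted p = 0.00089).

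Hlx encodes a homeobox factor that works with T-bet (chr1:184727140-184732619, minus strand). Its level was 0.486, 0.599 and 0.808 CPM in control and 6.04, 3.39 and 9.35 CPM in KO. The KO libraries again stood apart from control, and in the same order as for Tbx21. The log2 fold change was 3.26 (standard error 0.434, adjusted p = 0.000725 by edgeR).

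Eomes, a T-box factor related to T-bet and typical of cytotoxic lymphocytes, lies at chr9:118478212-118486132 on the plus strand. It was close to the limit of detection in control, with 1, 8 and 3 counts in replicates 1, 2 and 3, and had 35, 41 and 44 counts in KO. These are 0.0608, 0.165 and 0.0713 CPM against 1.33, 1.09 and 2.24 CPM. Eomes thus rose in all KO libraries (log2 fold change 3.78, SE 0.536, edgeR adjusted p = 0.000946), but its mean level there, 1.55 ± 0.603 CPM (SD, n = 3), was under that of Tbx21 in control. The size of this fold change rests on 12 control counts in all. Because Eomes passed the filter on low counts only through KO, it had little room to be called lower.

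Runx3, a RUNX factor that binds with T-bet at Ifng and elsewhere, was the most even of the factors (chr4:135120652-135177990, plus strand). Control libraries held 164, 167 and 194 CPM and KO libraries 167, 177 and 200 CPM, and replicate 3 was the highest in both groups. The log2 fold change was 0.050 (standard error 0.122, adjusted p = 0.761 by edgeR). Its direction reversed without control replicate 1 or without KO replicate 3.

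Other members of these families did not all move with Tbx21 and Eomes. Of 15 further T-box genes, 3 (Tbx6, Tbr1 and Mga) were abundant enough to be tested and none was called. Their log2 fold changes were 0.53, 0.79 and −0.29, and with a block for the replicate number Mga was called lower (edgeR adjusted p = 0.0391). Among 5 partners and relatives of Runx3, Runx2 alone was called (12.5 ± 2.36 to 21.0 ± 3.46 CPM, SD, n = 3, a change of 0.75 on the log2 scale, adjusted p = 0.0135 by edgeR). Runx1 and Cbfb, the DNA-binding relative and the shared partner, were not called. Among all tested genes 46.1% were called in either direction.

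IL-12 signals through a receptor of 2 chains. Il12rb1 encodes the chain shared with the IL-23 receptor, and Il12rb2 the chain specific to IL-12, which Th1 cells keep. Il12rb1 (chr8:70808449-70821424, plus strand) was at 171, 166 and 180 CPM in control and 157, 143 and 198 CPM in KO. The groups overlapped, with a log2 fold change of −0.053 (standard error 0.137, adjusted p = 0.776 by edgeR) whose sign turned when libraries were scaled by size alone or KO replicate 2 was left out.

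Il12rb2 (chr6:67291318-67376188, minus strand) held 117, 124 and 351 CPM in control replicates 1, 2 and 3 and 88.7, 77.6 and 159 CPM in KO. Replicate 3 was highest in both groups, and control replicate 3 was far above every other library. Without the pairing of replicate numbers the log2 fold change was −0.87 (standard error 0.435, adjusted p = 0.132 by edgeR). Within each pair of equal number KO was lower, by log2 differences of −0.40, −0.67 and −1.14. A blocked fit, in which equal numbers were paired, called it lower, at −0.74 (standard error 0.143, adjusted p = 0.00201 by edgeR), as did replicates 1 and 2 alone (−0.54, edgeR adjusted p = 0.00752). Without control replicate 3 and without the block it was −0.21 (edgeR adjusted p = 0.523).

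Reads of Il12rb2 may be mixed with those of a neighbour. In GENCODE M21, 40.0% of its exonic bases overlap exons of Serbp1 on the opposite strand, and the strand setting of the counting is not given in the sources used here. Serbp1, an abundant gene for an RNA-binding protein, held 873, 977 and 868 CPM in control and 675, 611 and 616 CPM in KO. Serbp1 was not raised in control replicate 3, where Il12rb2 was highest, but it was called lower in KO (log2 fold change −0.52, edgeR adjusted p = 0.00833). Its part in the lower Il12rb2 values was not tested.

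Stat4 encodes the factor that the IL-12 receptor activates (chr1:51987148-52107189, plus strand). Its levels were 56.3, 64.5 and 89.3 CPM in control and 43.0, 46.8 and 60.3 CPM in KO. The ranges overlapped because KO replicate 3 lay above control replicate 1, but KO was lower in each of the 3 pairs, by −0.39, −0.46 and −0.57 on the log2 scale. Stat4 was not called without the block (log2 fold change −0.49, SE 0.195, edgeR adjusted p = 0.0677) and was called lower with it (−0.47, SE 0.108, edgeR adjusted p = 0.00494). With the block 5 members were called higher and 2 lower, beside 27.0% and 26.4% of all tested genes, 53.5% in either direction. Without the block, 3 of 6 other STAT genes were called higher and none lower, beside 23.2% and 22.9% of all tested genes. Stat2 and Stat5a were among the higher ones (log2 fold changes 1.29 and 0.50). Stat5b was called lower with the block (−0.33, edgeR adjusted p = 0.0221) and by DESeq2 (adjusted p = 0.0440). The call of Stat5a was lost without control replicate 2 or without KO replicate 3.

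**Figure D2:**
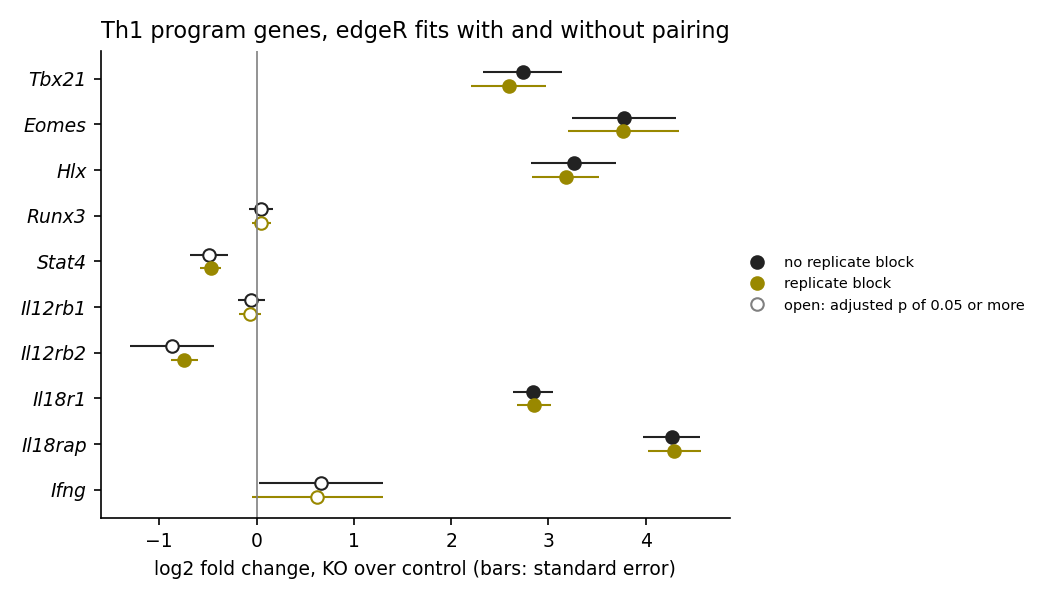
Log2 fold change of KO over control for the 10 genes (points; bars are standard errors), from edgeR without (black) and with (olive) the replicate number as a block. Filled points have an adjusted p under 0.05. Stat4 and Il12rb2 are the 2 genes whose call differs between the fits.

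The IL-18 receptor genes gave the clearest separation. Il18r1 encodes the chain that binds IL-18 and Il18rap the accessory chain needed for signalling, and the 2 genes lie 14507 bases apart on chromosome 1 (Il18r1 40465552 to 40500854, Il18rap 40515362 to 40551705, both on the plus strand). Il18r1 held 5.41, 5.14 and 3.71 CPM in control and 29.6, 39.9 and 31.9 CPM in KO. All KO libraries were above all control libraries, and KO replicate 2, the lowest for Tbx21, was the highest here. The log2 fold change was 2.84 (standard error 0.202, adjusted p = 7.03e-05 by edgeR), a 7.16-fold difference.

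Il18rap rose further. It held 3.28, 2.46 and 1.497 CPM in control and 34.2, 51.9 and 48.2 CPM in KO. That is a log2 fold change of 4.27 (standard error 0.295, adjusted p = 6.78e-05 by edgeR), or 19.2-fold. It was the largest among the 10 members, except without control replicate 2, where Eomes with its few control counts reached 4.39 and Il18rap 4.30. In control Il18rap had fewer counts than Il18r1 in every library, and in KO it had more in every library, without correction for exonic length.

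Both genes are part of a run of IL-1 receptor family genes, and 6 other genes of that region were examined. In chromosome order, Il1r2, the decoy receptor for IL-1, was lower in KO. Il1r1, the signalling receptor for IL-1, was higher. Il1rl2, the receptor for IL-36, rose from 8.69 ± 0.812 to 46.8 ± 10.5 CPM (SD, n = 3, a change of 2.43 on the log2 scale, adjusted p = 9.83e-05 by edgeR). Il1rl1, the IL-33 receptor ST2, was called higher at a very low level, 0.172 ± 0.128 to 0.533 ± 0.0259 CPM. Beyond Il18rap, Slc9a4, an ion exchanger gene, had 0 counts in every library, and Mfsd9, a transporter-like gene, was not called (−0.77, edgeR adjusted p = 0.116). Of the 5 tested neighbours 3 were thus called higher and 1 lower, beside 23.2% and 22.9% of all tested genes. The calls of Il1r1, Il1rl1 and Il1r2 were each lost in 3 or more of 6 leave-one-out fits, and Il1r2 went from −2.42 to −0.90 without control replicate 3, which held 13.6 CPM against 2.19 and 1.82 in control replicates 1 and 2.

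**Figure D3:**
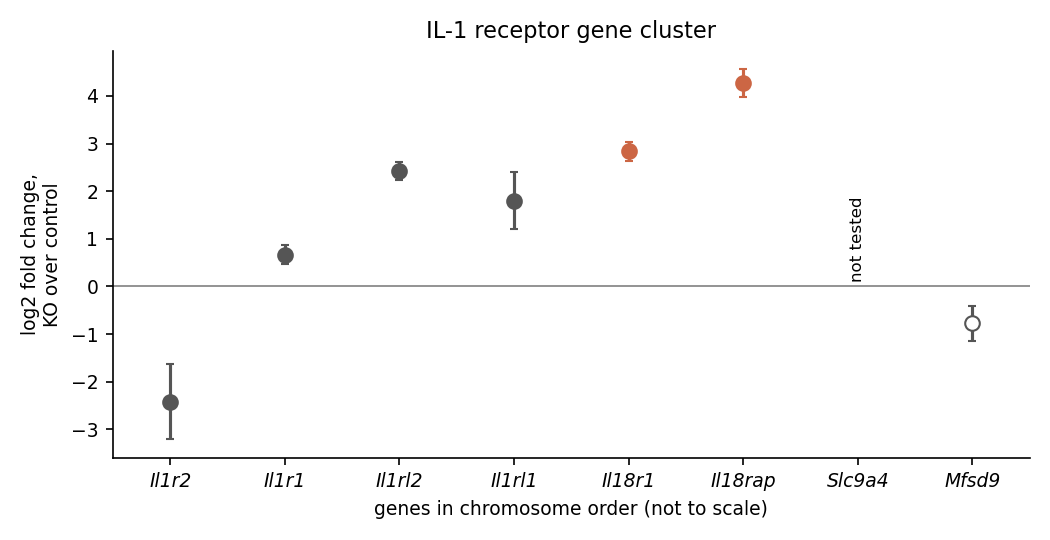
Log2 fold change of KO over control (points; bars are standard errors) for 7 of 8 genes in their order on chromosome 1, not to scale, Slc9a4 having no point because it was not tested, with Il18r1 and Il18rap in orange and an open point where the adjusted p was 0.05 or more. Il1rl2, Il18r1 and Il18rap lie at 2.43, 2.84 and 4.27, and Il1r2 and Mfsd9 below 0.

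Ifng encodes interferon gamma, the signature cytokine of Th1 cells (chr10:118441046-118445892, plus strand). It had 1, 20 and 16 counts in control replicates 1, 2 and 3 and 18, 8 and 13 counts in KO, that is 0.0608, 0.413 and 0.380 CPM against 0.683, 0.214 and 0.661 CPM. The groups overlapped, and the pairs of equal number differed in sign. The log2 fold change of 0.66 (standard error 0.641, adjusted p = 0.422 by edgeR) was near its standard error, so a change of moderate size was not detectable at this depth. Ifng RNA thus stayed under 1 CPM in every library, also in KO replicates 1 and 3, where Tbx21 was highest. A same-strand gene model, Gm49751, overlaps 26.0% of its exonic bases, and one named Gm28177 overlaps 26.7% of those of Stat4; neither has a row in the count table. Whether the cells were restimulated before RNA was taken is not given in the sources used here.

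Levels of different genes were compared per kilobase of exon (RPKM, CPM divided by exonic length). In control the order of the means was Il12rb2, Il12rb1, Runx3, Stat4, Tbx21, Il18r1, Il18rap, Hlx, Ifng and Eomes. The first place of Il12rb2 rests on control replicate 3, at 92.6 RPKM. In control replicates 1 and 2 it held 30.9 and 32.6 RPKM, below Il12rb1 at 41.6 and 40.4. Its level may also include reads of Serbp1, which overlaps 40.0% of its exonic bases. Stat4 stood at 18.1 ± 4.44 RPKM and Tbx21, the next gene, at 1.38 ± 0.309 (SD, n = 3), a gap with no overlap. The members that are called are those from Tbx21 downward in control, Ifng excepted. Neighbours whose ranges overlapped in control were Il12rb2 and Il12rb1, Tbx21 and Il18r1, Il18rap and Hlx, and Hlx and Ifng. In KO the order was Il12rb1, Runx3, Il12rb2, Stat4, Tbx21, Il18r1, Il18rap, Hlx, Ifng and Eomes. Tbx21 reached 9.25 ± 4.77 RPKM, which overlapped Stat4 at 12.9 ± 2.35 and Il18r1 at 7.01 ± 1.12 (SD, n = 3). Neighbours in KO were separate only between Il12rb2 and Stat4, Il18rap and Hlx, and Hlx and Ifng. The 4 most abundant genes were the same 4 in both groups.

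Ratios of 2 genes within 1 library do not depend on scaling between libraries. The p-values of the ratios were adjusted over the 3 that were computed, of which those of the receptor chains are given. With 3 libraries against 3 the smallest p of the exact permutation test is 0.1. For Il18rap over Il18r1 the log2 ratio was −0.71, −1.06 and −1.29 in control and 0.21, 0.38 and 0.60 in KO, a difference of 1.42 (exact permutation test, two-sided, p = 0.1, adjusted p = 0.15). The accessory chain gene therefore changed from the less to the more counted of the pair in all libraries, without correction for length. Per kilobase of exon, Il18rap was below Il18r1 in KO replicates 1 (5.06 against 6.14 RPKM) and 2 (7.69 against 8.28 RPKM). In KO replicate 3 it was above Il18r1 (7.14 against 6.62 RPKM). The ratio of Il12rb2 to Il12rb1 overlapped between groups, from −0.54 to 0.97 in control and −0.89 to −0.32 in KO (exact permutation test, two-sided, p = 0.3, adjusted p = 0.3). Within pairs of equal number it was lower in KO in all 3, by −0.28, −0.46 and −1.29, and the difference of −0.67 between groups became −0.19 without control replicate 3.

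**Figure D4:**
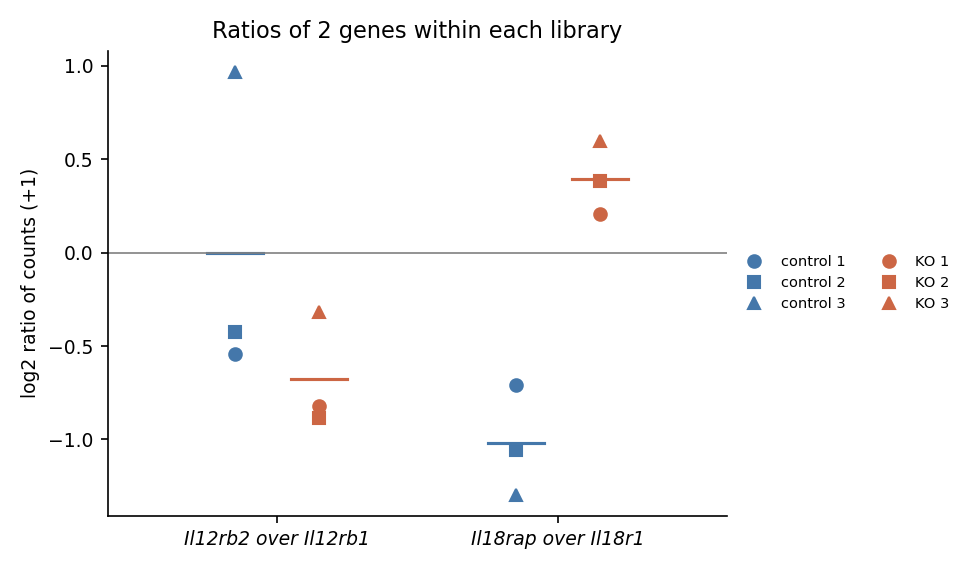
Log2 ratio of the counts (plus 1) of 2 genes within each library, control in blue and KO in orange, with circles, squares and triangles for replicates 1, 2 and 3 and short lines for group means. The groups separate for Il18rap over Il18r1 and overlap for Il12rb2 over Il12rb1.

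Further Th1-associated effector and surface genes moved in both directions. Of 20 tested from a list of 22, 10 were called higher and 4 lower, beside 23.2% and 22.9% of all tested genes. The list's median log2 fold change was 0.77. Havcr2, which encodes the receptor TIM-3, rose from 0.164 ± 0.147 to 6.68 ± 0.955 CPM (SD, n = 3, a change of 5.08 on the log2 scale, adjusted p = 0.000264 by edgeR). Prdm1, the gene of the repressor Blimp-1, rose from 0.676 ± 0.344 to 9.63 ± 4.88 CPM (3.75, edgeR adjusted p = 0.000585). Ly6c2, a surface marker of effector T cells, had at most 3 counts in any control library and was at least 9.96-fold higher in KO, against a floor of 3 counts per control library. The other genes called higher were the chemokine genes Ccl3 and Ccl4, the cytotoxic genes Gzmb, Nkg7 and Fasl, and the transcription factor genes Zeb2 and Id2. The 4 lower ones included Lta, Bhlhe40 and Il27ra. Bhlhe40, a factor needed for cytokine production, fell from 737 ± 67.5 to 378 ± 42.2 CPM (SD, n = 3, adjusted p = 0.000878 by edgeR), while Lta lost its call in 4 of 6 leave-one-out fits, and also when libraries were scaled by size alone. Fasl lost its call in 4 of those 6 fits. Cxcr3, a chemokine receptor and T-bet target, was at 1.82 ± 0.340 and 2.35 ± 0.172 CPM (edgeR adjusted p = 0.324).

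Of 20 genes in IL-12, IL-18 and interferon gamma signalling, all tested, 10 were called higher and 2 lower, with a median log2 fold change of 0.34. Among all tested genes 23.2% were called higher and 22.9% lower. The 2 chains of the interferon gamma receptor both rose: Ifngr1 from 45.9 ± 7.75 to 165 ± 51.7 CPM (SD, n = 3, a change of 1.84 on the log2 scale, adjusted p = 0.000616 by edgeR) and Ifngr2 by 1.18. Gadd45g, a stress protein that feeds IL-12 and IL-18 signals to p38 kinase, rose from 16.5 ± 2.60 to 62.0 ± 9.42 CPM (1.90, edgeR adjusted p = 0.000144). Map2k6, a kinase that activates p38, fell from 17.1 ± 3.76 to 3.68 ± 0.541 CPM (−2.22, edgeR adjusted p = 0.000243). Downstream of IL-18, Myd88, Irak2 and Irak4 were called higher, and Irak1 and Traf6 were not called. Of the kinases of the IL-12 and interferon gamma receptors, Jak1 was higher, Jak2 was lower with a call lost in 3 of 6 leave-one-out fits, and Tyk2 was not called. Map3k7, a kinase of the IL-18 pathway, was called higher (0.39) but lost the call in 5 of the 6.

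Textbook target genes of interferon gamma, many of which also respond to other interferons, were called higher in 13 of 16 tested cases (18 listed). None was called lower, and the median log2 fold change was 1.62. Among all tested genes 23.2% were called higher and 22.9% lower. Irf1 rose from 34.5 ± 6.28 to 197 ± 37.4 CPM (SD, n = 3, a change of 2.51 on the log2 scale, adjusted p = 7.86e-05 by edgeR). Gbp3, a guanylate-binding protein gene, rose from 6.37 ± 2.33 to 53.4 ± 15.7 CPM (3.04), and Ciita, the activator of MHC class II genes, from 0.195 ± 0.166 to 1.90 ± 0.814 CPM (3.10). Irf8, Cxcl10 and Psmb8 were not called, but the block called Irf8 (edgeR adjusted p = 0.0364) and Psmb8 (edgeR adjusted p = 0.0471) higher, which makes 15 of 16. With the block 27.0% of all tested genes were called higher. Psmb8 was also called when libraries were scaled by size alone. In the same KO libraries Ifng had at most 18 counts, and the part of interferon gamma in the higher target genes was not tested.

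Of 10 tested genes that oppose the Th1 program, 3 were called higher and 4 lower, beside 23.2% and 22.9% of all tested genes. Their median log2 fold change was 0.088. Gata3, the Th2 factor, fell from 35.4 ± 20.7 to 11.7 ± 6.002 CPM (SD, n = 3, a change of −1.60 on the log2 scale, adjusted p = 0.029 by edgeR), with overlapping groups and a call lost in 3 of 6 leave-one-out fits. Gfi1, a repressor, fell from 38.6 ± 11.2 to 14.7 ± 1.61 CPM (−1.39, edgeR adjusted p = 0.00151), and Ikzf1 and Cish were also lower. Bcl6, the factor of follicular helper T cells and a repressor of Prdm1, rose from 8.23 ± 0.895 to 42.2 ± 5.93 CPM (2.36, edgeR adjusted p = 6.78e-05), and Foxp3 and Sh2b3 were higher with calls lost in 4 of 6 leave-one-out fits.

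**Figure D5:**
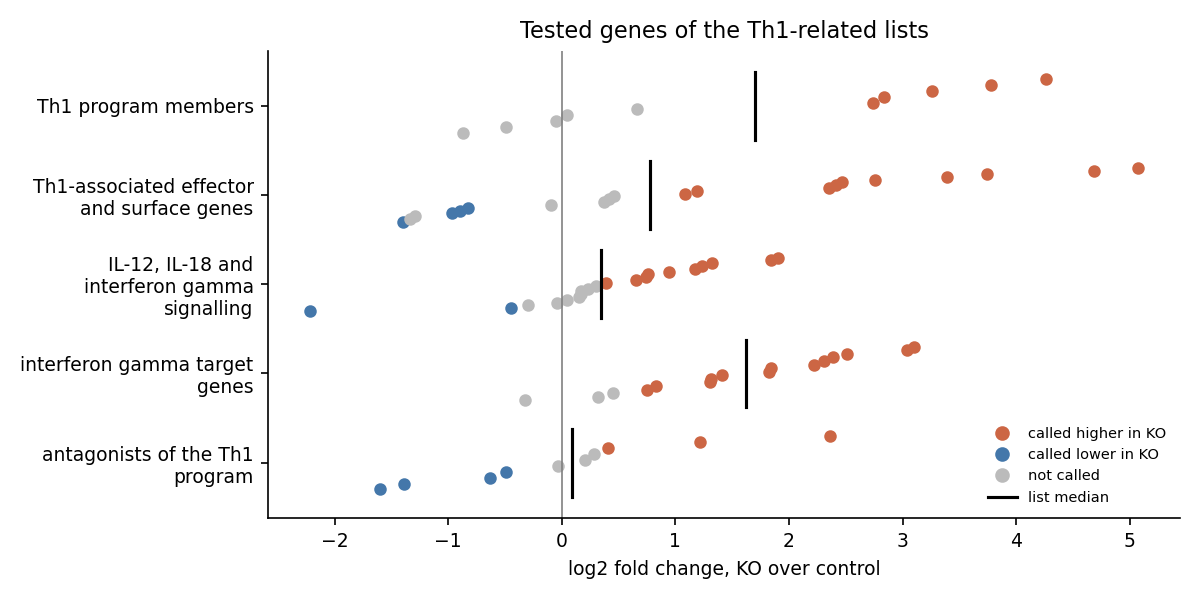
Log2 fold change of KO over control for each tested gene of 5 lists (points), orange where called higher, blue where called lower and grey where not called, with the list median as a black line. The medians are 1.70, 0.77, 0.34, 1.62 and 0.088 from top to bottom, against 0.013 for all tested genes. The fitted value of Ly6c2, the second highest point of the effector list, depends on the prior count.

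Markers of other cells that express Th1 genes were examined beside these results. In bulk RNA, fewer cells of a type and less RNA per cell cannot be told apart. Ncr1 and Klrb1c, defining genes of natural killer cells, had 0 counts in all libraries, and the 6 natural killer markers summed to 3.23 to 3.96 CPM in control and 2.03 to 3.95 CPM in KO. For CD8 T cells, Cd8a stayed under 1 CPM, and Cd8a and Cd8b1 summed to 6.87 to 10.5 CPM in control and 5.39 to 9.61 CPM in KO. The 4 gamma delta T cell markers summed to 1.64 to 2.78 CPM and 2.88 to 3.30 CPM, and the 5 B cell markers to 1.24 to 3.09 CPM and 1.74 to 2.62 CPM. Zbtb16, the factor of natural killer T cells, was 0.0206 to 0.547 CPM in control and 1.71 to 3.46 CPM in KO (log2 fold change 3.94, edgeR adjusted p = 0.00433). The 6 myeloid markers summed to 2.13 to 5.04 CPM and 17.2 to 27.7 CPM, most of it Cd68. Csf1r was also called higher (1.72 on the log2 scale, adjusted p = 0.0256 by edgeR), with a call lost in 4 of 6 leave-one-out fits. Lyz2 and Itgax did not pass the filter on low counts in the main comparison, but were called higher in the 6 and 5 leave-one-out fits that tested them. Itgam and Adgre1 stayed under 1 CPM. The 4 markers of type 2 cells summed to 4.54 to 12.5 CPM and 1.74 to 2.62 CPM. Which cells held the Zbtb16 and Cd68 RNA was not tested. Nor was any part of such cells in the rise of Tbx21, Eomes, Hlx and the IL-18 receptor genes.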

How the data were processed

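The table the authors deposited holds whole-number counts per gene symbol for 6 libraries. Per the submitters' processing notes, STAR, featureCounts, DESeq2 and the build mm10 were used; their order, versions and strand setting are not given in the sources used here. Groups and replicate numbers came from the sample titles. Counts of KO and control were compared with edgeR 4.0.16 (R 4.3.3; TMM, filterByExpr by group, quasi-likelihood test, Benjamini-Hochberg adjustment), which was tested on simulated data first. After filtering, 14268 genes remained, with 99.9% of the counts. Genes almost absent in control, such as Eomes, Havcr2, Ly6c2 and Ciita, passed the filter through the KO libraries. Such genes had little room to be called lower, and they are part of the counts of genes called higher. Standard errors were derived from each log2 fold change and its F statistic. GENCODE M21 (GRCm38) gave gene positions and exonic lengths, and RefSeq the promoters. Alternatives were other scalings, filters, DESeq2 1.42.0, a replicate block, single libraries left out, and replicates 1 and 2 alone.

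Libraries of equal replicate number deviated together from their group means (correlations across genes 0.363, 0.119 and 0.448), so the numbers were read as pairing them, although control replicate 2 correlated more with KO replicate 1 (0.311). The numbers' meaning is not labelled.

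The members, the lists and the motifs were chosen with earlier results of these data known. In each list the 3 called genes with the largest absolute change are named, plus those that make up a count. The 4 genes most correlated with Tbx21 were named by rank. Results for some genes of the lists, and a ratio that used one, are not reported here. Floors of 3 counts cover counting error only.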

Additional observations from a re-analysis of the deposited data

How the results depend on the processing

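Tbx21, Eomes, Hlx, Il18r1 and Il18rap were called higher in all 14 alternatives, with log2 fold changes of 2.19 to 3.10, 3.16 to 4.39, 2.86 to 3.57, 2.62 to 2.93 and 3.94 to 4.42, and Ifng was called in none. The number of members called lower, 0 in the main comparison, was 2 (Stat4 and Il12rb2) with the replicate block, with no filter beyond any count and with replicates 1 and 2 only, 1 (Stat4) with DESeq2, and 0 to 1 when 1 library was left out. In those fits Stat4 lay between −0.68 and −0.33. The replicate block changed no other member's call. Il12rb1 turned to 0.033 when libraries were scaled by size alone and ranged from −0.20 to 0.047 (without KO replicate 2) with 1 library left out. Runx3 ranged from −0.058 (without control replicate 1) to 0.10, and was −0.028 without KO replicate 3; none of these was called, and the cause was not tested. Over all genes, 3269 were called lower in the main comparison, 2170 (without KO replicate 2) to 3700 (without control replicate 3) with 1 library left out, and 2799 to 3771 (replicate block) in the other alternatives. Scaling by size alone moved the median of all genes to 0.10. Of the list counts under the alternatives, 204 stayed within 1.5 times the main count and 20 did not. Depth limits Eomes in control and Ifng in both groups, each with at most 20 counts there.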

Other observations

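The 4 genes of standard symbol whose log2 CPM followed that of Tbx21 most closely over the 6 libraries, out of 9445 with a mean of at least 5 CPM, were Cyfip1 (Pearson r = 0.997), Bcl2a1b (0.995), Qpctl (0.989) and Lrrc28 (0.989). The 6 points fall into 2 groups, so these values describe a ranking and carry no test. Cyfip1, an actin regulator gene, held 50.5, 55.3 and 51.3 CPM in control and 79.6, 66.0 and 88.2 CPM in KO, with KO replicate 2 the lowest of KO as for Tbx21. Il18rap (0.897) and Il18r1 (0.883) ranked 608 and 787 among the same genes.

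Within KO, the libraries ordered the risen members differently. Tbx21, Eomes and Hlx were lowest in replicate 2 and highest in replicate 3, whereas Il18r1 and Il18rap were highest in replicate 2. In pairs of equal number the log2 difference of Tbx21 was 2.92, 1.28 and 3.63, and that of Il18r1 was 2.45, 2.96 and 3.10. This contrast was noticed after the values were seen and was not tested.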
